A study of Mus musculus with 11 samples.

Results

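The 10 genes described here encode enzymes of the lysosome and endosome that prepare proteins for presentation on MHC class II molecules. They are the cathepsins Ctss, Ctsl, Ctsb, Ctsh, Ctsz, Ctsc, Ctsd and Ctse, the asparaginyl endopeptidase Lgmn and the thiol reductase Ifi30. The genes were taken by name, and the probe set of each was chosen by its mean log2 level over all 11 arrays, the highest among those with exactly 1 gene symbol. All 10 were measured, of 22180 genes in all, and each had a single such probe set, so that the level decided nothing. The names were listed with results of these arrays known, so the values below are no independent support for that choice.

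The levels come from 11 microarrays of common lymphoid progenitors (CLPs), bone marrow cells from which lymphocytes develop, sorted from C57BL/6 mice. On alternate days over 10 days each mouse was given either PBS or 50 µg of CpG1826. CpG1826 is a synthetic oligonucleotide that activates Toll-like receptor 9. The CLPs were sorted by surface Ly-6D, a protein that appears as CLPs enter the B lineage, and the 4 groups held 3 arrays of Ly-6D+ CLPs after CpG, 2 of Ly-6D+ CLPs after PBS, 3 of Ly-6D- CLPs after CpG and 3 of Ly-6D- CLPs after PBS. The sources used here do not give the ages of the mice or say whether an array held 1 animal or a pool. The p-values therefore measure only how far these samples spread, which may be technical. Levels are on the log2 scale, where a difference of 1 is 2-fold, and they are compared between arrays for 1 gene at a time, never between genes.

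Proteins taken up by a cell are unfolded and cut in endosomes and lysosomes, and the peptides are loaded onto MHC class II. Ifi30, also called GILT, is inducible by interferon-gamma and reduces disulfide bonds so that folded antigens can be cut. Ctss removes the invariant chain from MHC class II in B cells and dendritic cells, and Ctsl does so in the thymic cortex. Ctsb is an endopeptidase that also trims dipeptides. Ctsh is an aminopeptidase, Ctsz a carboxypeptidase and Ctsc a dipeptidyl peptidase that activates the serine proteases of granules. Ctsd and Ctse are aspartic proteases, and Lgmn cuts after asparagine and processes other cathepsins to their mature forms. Many lysosomal genes carry an E-box, CACGTG, in their promoters as the core of the CLEAR element, which the transcription factor TFEB binds.

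Promoter sequences from RefSeq (GRCm38.p6) were found for 7 of the 10 genes, and Ctsb, Ctsh and Ctse had none. The 250 bases before the start site are shown for 3 genes to set side by side the gene with the largest CpG response, Ifi30, the main invariant chain protease of B cells and dendritic cells, Ctss, and the gene that varied least, Ctsd. Capitals mark matches on either strand to CACGTG, to GAAANNGAAA (the core of the interferon-stimulated response element), to TTCNNNGAA (the interferon-gamma activated site) or to GAGGAA (a core that the myeloid and lymphoid factor PU.1 binds).
Ifi30, chr8:70766664-70766913, minus strand: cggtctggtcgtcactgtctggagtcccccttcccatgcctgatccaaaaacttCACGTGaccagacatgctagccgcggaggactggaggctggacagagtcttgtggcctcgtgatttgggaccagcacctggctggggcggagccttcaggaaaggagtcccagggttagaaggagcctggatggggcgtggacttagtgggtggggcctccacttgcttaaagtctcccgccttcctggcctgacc
Ctss, chr3:95526536-95526785, plus strand: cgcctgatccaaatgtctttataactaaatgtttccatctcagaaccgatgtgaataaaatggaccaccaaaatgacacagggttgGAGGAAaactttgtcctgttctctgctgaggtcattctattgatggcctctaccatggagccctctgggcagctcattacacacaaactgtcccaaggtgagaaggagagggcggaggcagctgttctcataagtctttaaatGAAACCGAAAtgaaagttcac
Ctsd, chr7:142387828-142388077, minus strand: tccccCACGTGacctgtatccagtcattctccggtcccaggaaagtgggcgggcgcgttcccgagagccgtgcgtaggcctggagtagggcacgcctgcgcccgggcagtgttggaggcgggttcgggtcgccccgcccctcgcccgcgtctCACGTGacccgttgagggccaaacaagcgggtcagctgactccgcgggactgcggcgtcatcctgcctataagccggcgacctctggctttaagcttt
Ifi30 has 1 E-box, Ctsd has 2, and Ctss has an interferon-stimulated response element core and a PU.1 core. Of all 32851 promoter windows of this length, 6.02% hold the E-box, 2.98% the interferon-stimulated response element core, 7.02% the interferon-gamma activated site and 23.3% the PU.1 core. The E-box was in windows of 4 of the 7 genes, those of Ifi30, Ctsd, Ctsl and Lgmn, and the interferon-gamma activated site in that of Ctsc. Ctsz had no match. Among the 8 windows of these genes, 3 overlap the gene itself in RefSeq, from a start site inside it: those of Ctsl and Ctsc and the second window of Lgmn, which holds its E-box. A match is a run of letters and was not tested as a binding site.

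The array medians lay between 3.85 and 3.96. The sort marker Ly6d had group means of 12.57 and 12.58 in Ly-6D+ CLPs and of 7.72 and 8.23 in Ly-6D- CLPs. The progenitor genes Flt3 and Dntt had group means of 10.54 to 10.84 and of 12.01 to 12.30. No detection values were used, so signal over background is unknown, and a marker cannot be called absent. Markers of other cells were low in part and high in part within each of the lists given next. The group means were 3.32 to 3.68 for Cd14 but 10.35 to 10.75 for Lyz2 and 10.39 to 11.47 for Ly6c2 (monocytes and macrophages), and 3.39 to 3.54 for Zbtb46 but 6.14 to 7.54 for Itgax and 6.92 to 7.73 for Ccr7 (conventional dendritic cells). They were 2.98 to 3.62 for Cd3e but 10.40 to 10.88 for Nkg7 (T and NK cells), and 2.55 to 3.15 for Ms4a1 but 8.75 to 9.76 for Cd79b (B cells). The 8 neutrophil and granule markers held no such low gene. Their lowest group mean was 8.31, for Elane in Ly-6D+ CLPs after CpG, and S100a8 had group means of 12.58 to 12.63. The part of neutrophils in the levels of the enzymes was not tested. These bulk samples cannot tell fewer cells of a type from less RNA per cell.

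The first comparison asked how CpG treatment moved the enzymes in Ly-6D- CLPs, the population without the B-lineage marker. Ifi30 and Ctsh rose. Ctsz and Lgmn had the next highest log2 changes and did not pass the test. Ifi30 was at 7.90, 7.61 and 6.97 on the 3 PBS arrays and at 10.10, 9.81 and 9.27 on the 3 CpG arrays. The groups did not overlap, and the lowest CpG array was above the highest PBS array by more than the spread within either group. The mean went from 7.50 ± 0.48 to 9.72 ± 0.42 (SD, n = 3 each), a 4.69-fold rise (log2 change 2.23, SE 0.24, limma adjusted p = 0.00660 over all 22180 genes). Ctsh was at 7.23, 7.06 and 6.61 after PBS and at 8.47, 8.36 and 7.88 after CpG. Again every CpG array was above every PBS array. The aminopeptidase rose 2.42-fold (log2 change 1.27, SE 0.21, adjusted p = 0.0333). These 2 of the 10 genes rose and 0 fell, against 0.302% of all genes that rose and 0.243% that fell (0.546% in either direction). The median log2 change of all 10 enzyme genes was 0.39, against -0.0006 over all 22180 genes. The call of Ifi30 ended without Ly-6D- CpG replicate 2 (adjusted p = 0.0583) and in a fit of the Ly-6D- arrays alone (0.101). That of Ctsh ended in the same fit (0.133) and without any 1 of 9 arrays, all but Ly-6D+ CpG replicate 3 and Ly-6D- CpG replicate 3, with adjusted p from 0.0530 to 0.147 (limma).

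Ctsz, the carboxypeptidase, was at 8.91, 8.56 and 8.14 after PBS and at 9.62, 9.49 and 9.23 after CpG in Ly-6D- CLPs. Its groups did not overlap. The log2 change of 0.91 (SE 0.17) had a limma adjusted p of 0.0525 and did not pass; it passed in 4 alternative fits that kept every array and had no replicate block (adjusted p of 0.0129 to 0.0436) and when CpG replicate 3 (0.0370) or PBS replicate 1 (0.0460) of this population was left out. Lgmn was at 7.71, 7.83 and 7.29 after PBS and at 8.52, 8.43 and 8.11 after CpG, a log2 change of 0.74 (SE 0.17, adjusted p = 0.0921, and 0.0297 with a variance trend and robust estimation). The groups were apart here too, with the lowest CpG array closer to the highest PBS array than the means were to each other. Ctsc, at 8.15, 8.07 and 7.92 after PBS, was at 8.76, 8.46 and 8.34 after CpG (log2 change 0.48, SE 0.14, adjusted p = 0.192). For Ctss the change was 0.31 (SE 0.10, adjusted p = 0.253) and for Ctsb one of 0.29 (SE 0.11, adjusted p = 0.297). In both of these endopeptidases every CpG array was above every PBS array. In all, 7 of the 10 genes were higher without overlap after CpG and 0 were lower, against 8.5% and 7.2% of all genes (15.7% either way). An unadjusted p below 0.05 was reached by 7 of the 10 genes and by 12% of all genes. The other 3 genes overlapped between the groups. Their changes were 0.12 for Ctsl, -0.05 for Ctsd and -0.19 for Ctse (SE 0.10, 0.09 and 0.19).

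**Figure D1:**
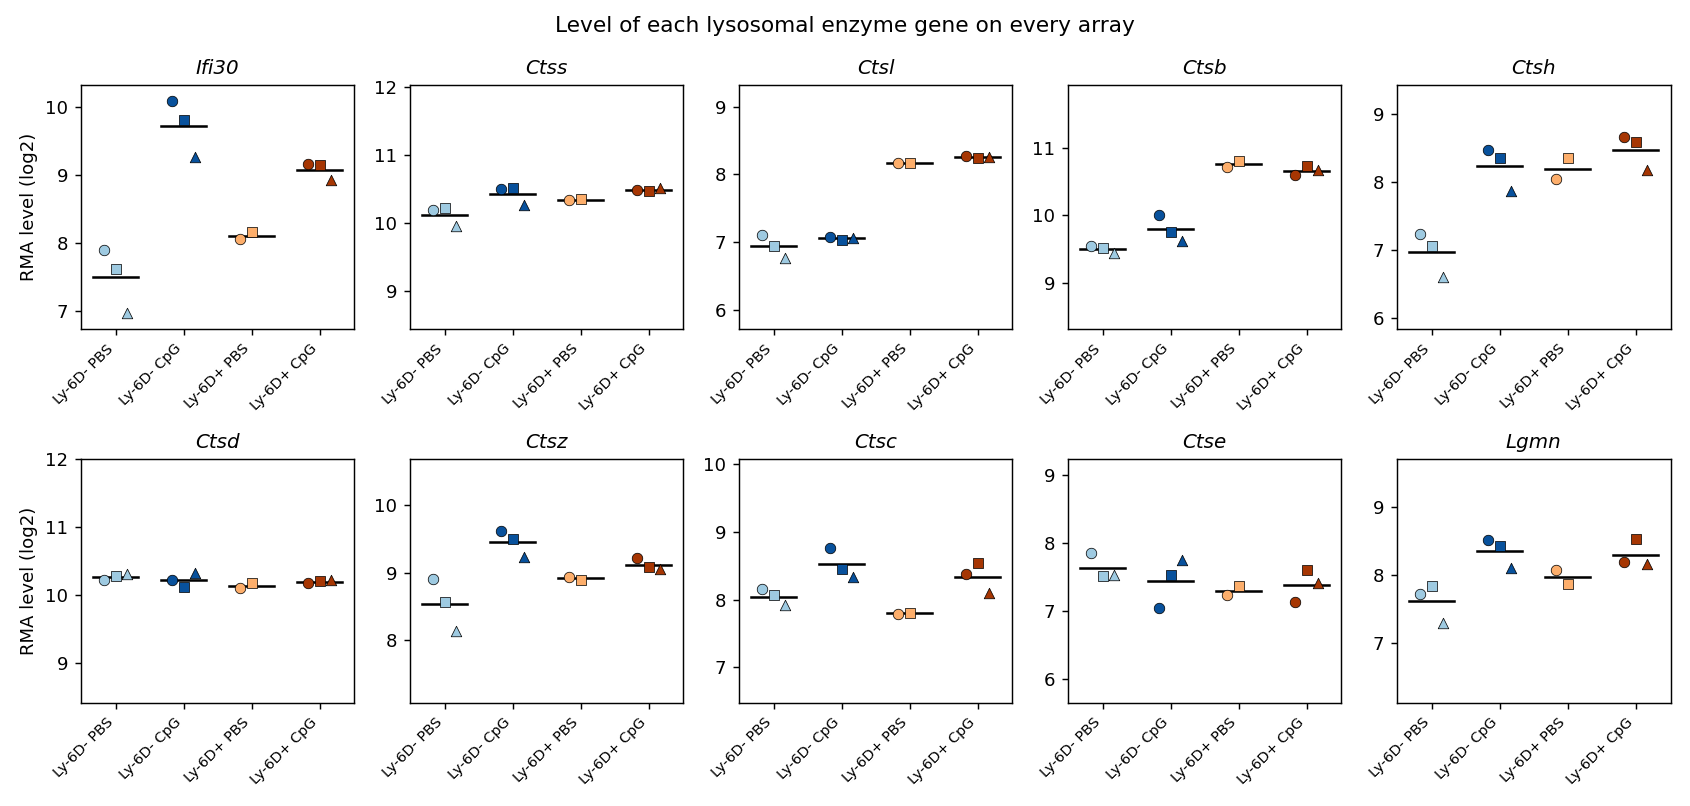
RMA level on the log2 scale of each gene (vertical axis, spanning 3.6 units in every panel) on the 11 arrays by group (horizontal axis). Circles, squares and triangles are replicates 1, 2 and 3, and lines are group means. Ifi30 has 4 groups that do not overlap, Ctsl and Ctsb separate the populations, and Ctsd is nearly level across all groups.

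Markers of myeloid cells moved in the same comparison. Of the 11 measured monocyte and macrophage markers, all had changes above 0 in Ly-6D- CLPs (median log2 change 0.93), and 4 rose, F13a1 (1.81, SE 0.21), Ccr2 (1.57, SE 0.19), Ms4a6c (1.28, SE 0.19) and Ly6c2 (1.09, SE 0.17), with limma adjusted p of 0.0101 to 0.0300. The mean of these 11 markers ranged over 6.88 to 7.04 on the Ly-6D- PBS arrays and over 7.56 to 8.22 on the Ly-6D- CpG arrays. For Lyz2, the lysozyme of macrophages and granulocytes, the log2 change was 0.08 (limma adjusted p = 0.873). The 8 neutrophil markers had a median of -0.06, with 2 above 0 and 0 past the test. Among them Prtn3 (1.04, limma adjusted p = 0.0787) was the 1 at an unadjusted p below 0.05. Of the 8 plasmacytoid dendritic cell markers 0 passed, and 7 had an unadjusted p below 0.05. Their changes were above 0 for 4 and below 0 for 4 (median 0.04). Of 7 conventional dendritic cell markers 0 passed by limma (4 above 0, median 0.11, 2 at an unadjusted p below 0.05). The part of other cells in the rises of Ifi30 and Ctsh was not tested. Conversely Il7r and Rag2, of the 7 lymphoid progenitor genes, fell by 0.81 and by 0.75 on the log2 scale (SE 0.13 and 0.11, adjusted p = 0.0300 and 0.0221). All 7 had changes below 0 (median -0.50), and all 7 had an unadjusted p below 0.05.

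The same question was asked in Ly-6D+ CLPs, which express the B-lineage marker. Ifi30 had the highest log2 change of the 10 genes and Ctsc the next, and neither passed. Ifi30 was at 8.06 and 8.16 on the 2 PBS arrays and at 9.16, 9.15 and 8.94 on the CpG arrays. The groups were clearly apart, with a 1.97-fold difference of means (log2 change 0.98, SE 0.27), but the limma adjusted p was 0.459. Ctsc was at 7.80 and 7.81 after PBS and at 8.38, 8.54 and 8.09 after CpG (log2 change 0.54, SE 0.16, adjusted p = 0.503). Among all 10 genes 0 passed by limma, where 0.0271% of all genes passed, and 2, these same genes, had an unadjusted p below 0.05, as did 6.51% of all genes. A variance trend with robust estimation also gave 0 of 10. Lgmn, Ctsh and Ctsz had log2 changes of 0.33, 0.28 and 0.21 (SE 0.19, 0.23 and 0.20), Ctss 0.15, Ctsl 0.09, Ctse 0.08 and Ctsd 0.06, and Ctsb -0.09. Of the 10 genes, 6 were higher after CpG with no overlap and 0 lower, against 10.7% and 9.76% of all genes (20.4% either way). The median change was 0.18, against 0.0032 over all genes. With 2 PBS arrays the intervals are wide: for Ctsh the 95% confidence interval of the log2 change, not adjusted for the number of genes, runs from -0.24 to 0.79. The 11 monocyte and macrophage markers had a median of 0.50 with 0 past the limma test and 5 at an unadjusted p below 0.05, and their mean ranged over 6.43 to 6.59 after PBS and 6.73 to 7.14 after CpG. Whether they bear on the Ifi30 values was not tested.

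**Figure D2:**
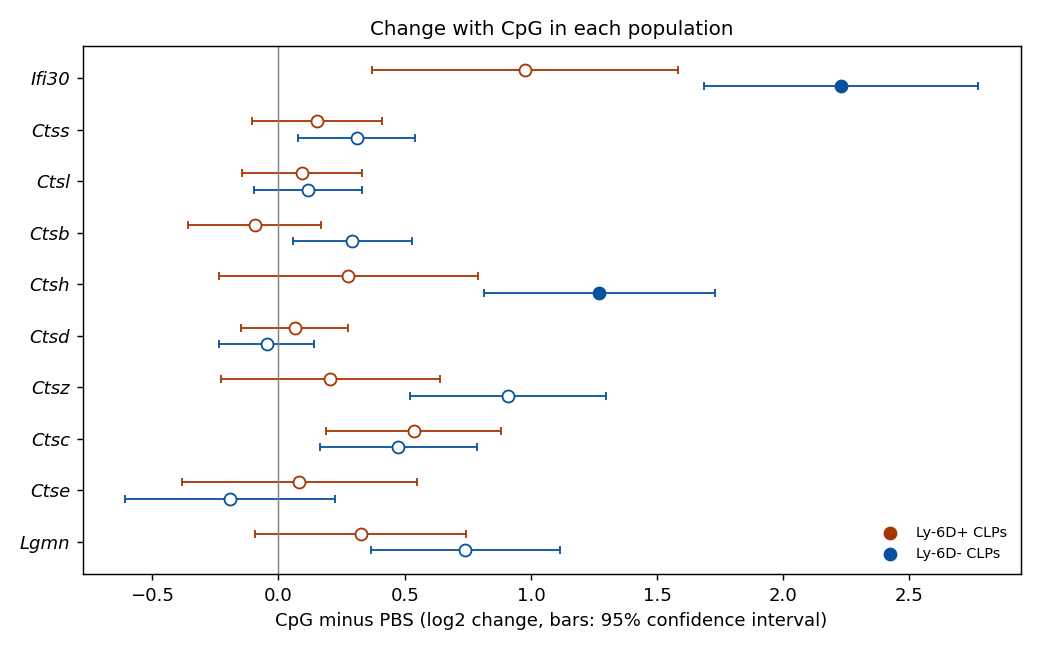
Log2 change with CpG of each gene (horizontal axis) in Ly-6D+ CLPs (brown) and Ly-6D- CLPs (blue), with 95% confidence intervals from limma, not adjusted for the number of genes. Filled points passed at an adjusted p below 0.05, which were Ifi30 (2.23) and Ctsh (1.27) in Ly-6D- CLPs.

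Averaged over both populations, Ifi30 rose 3.04-fold (log2 change 1.60, SE 0.18, limma adjusted p = 0.00853), and all 6 CpG arrays were above all 5 PBS arrays. It was the 1 of 10 genes that passed, where 0.28% of all genes rose and 0.203% fell. Its call ended without Ly-6D+ PBS replicate 1 (adjusted p = 0.0521) or replicate 2 (0.0507). Ctsh (0.77, SE 0.16), Ctsz (0.56, SE 0.13), Lgmn (0.53, SE 0.13) and Ctsc (0.51, SE 0.11) had adjusted p of 0.0731 to 0.118. Ctsc had changes of 0.54 and 0.48 in the populations that make up this average. With a variance trend and robust estimation, all 4 passed (adjusted p = 0.0212, 0.0388, 0.0432 and 0.0228), and Ctsh passed also with array weights (0.0401) and without Ly-6D- CpG replicate 3 (0.0275). The averages of Ctss (0.23), Ctsl (0.10), Ctsb (0.10), Ctsd (0.01) and Ctse (-0.05) were smaller.

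Whether the CpG effect itself differed between the populations was tested as the effect in Ly-6D+ minus that in Ly-6D- CLPs. None of the 10 genes passed, and neither did any of the 22180 genes (0% called by limma, by that fit and by the variance trend). At an unadjusted p below 0.05 there were 4 of the 10, against 6.37% of all genes: Ifi30 (-1.25, SE 0.37, 95% confidence interval -2.07 to -0.44), Ctsh (-0.995, SE 0.31, -1.68 to -0.31), Ctsz (-0.70, SE 0.26, -1.28 to -0.12) and Ctsb (-0.39, SE 0.16, -0.74 to -0.03), with adjusted p of 0.622, 0.651, 0.725 and 0.767. The difference for Ctsc was 0.06, with an interval from -0.41 to 0.53. That for Ctsl was -0.02 (-0.34 to 0.30). A larger response of Ifi30 or Ctsh in Ly-6D- CLPs was thus not separated from the spread between arrays once all genes were accounted for.

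The populations were then compared with each other after PBS, which asks how the sorted cells differed without stimulation. The endopeptidases Ctsl and Ctsb and the aminopeptidase Ctsh were higher in Ly-6D+ CLPs. Ctsl was at 8.16 on both Ly-6D+ PBS arrays and at 7.11, 6.94 and 6.77 on the Ly-6D- PBS arrays, which it exceeded without overlap. The difference was 2.33-fold (log2 difference 1.22, SE 0.11, limma adjusted p = 2.07e-04). Ctsb was at 10.71 and 10.81 against 9.54, 9.51 and 9.45, a 2.39-fold difference (1.26, SE 0.12, adjusted p = 3.32e-04). The arrays within each population lay close together for both genes. Ctsh was at 8.05 and 8.35 against 7.23, 7.06 and 6.61, a 2.36-fold difference (1.24, SE 0.23, adjusted p = 0.0223). The 3 genes were higher in Ly-6D+ CLPs and 0 lower past the test, against 1.18% and 0.798% of all genes (1.98% in either direction). The calls of Ctsl and Ctsb held in every fit that was run, leaving out each array included. That of Ctsh ended without Ly-6D+ PBS replicate 1 (adjusted p = 0.0866) or 2 (0.164), without Ly-6D- PBS replicate 2 (0.0570) or 3 (0.0626), and in a fit of the PBS arrays alone (0.103). Both comparisons in which Ctsh passed use the Ly-6D- PBS arrays, where its level was lowest.

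Among the other genes after PBS, Ifi30 had a log2 difference of 0.61 (SE 0.27, adjusted p = 0.414), Ctsz of 0.37, Lgmn of 0.36 and Ctss of 0.22, all higher in Ly-6D+ CLPs. Ctse, Ctsc and Ctsd had differences of -0.33, -0.24 and -0.13. None of these 7 passed. The arrays did not overlap for 6 genes that were higher and 3 that were lower in Ly-6D+ CLPs, against 12.9% and 14% of all genes (26.9% either way) in this comparison of 2 arrays with 3. The median difference was 0.37, against -0.0091 over all genes.

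After CpG the population difference passed again for Ctsl and Ctsb and did not pass for Ctsh. Ctsl was at 8.27, 8.24 and 8.26 on the Ly-6D+ CpG arrays and at 7.08, 7.03 and 7.07 on the Ly-6D- CpG arrays, tight groups that lay 2.29-fold apart (1.20, SE 0.10, limma adjusted p = 1.19e-04). Ctsb was at 10.60, 10.72 and 10.67 against 10.00, 9.75 and 9.62, again with no overlap, a 1.83-fold difference (0.87, SE 0.11, adjusted p = 0.00154). Both calls held in every fit that was run. Ctsh, with arrays that overlapped, had a difference of 0.24 (SE 0.21, adjusted p = 0.703, 95% confidence interval -0.22 to 0.70). A change of the Ctsh difference between PBS and CpG did not pass either (-0.995, limma adjusted p = 0.651). After CpG 2 of 10 genes were thus higher past the test and 0 lower, against 1.2% and 0.938% of all genes (2.14% in either direction). Ifi30 and Ctsz, above without passing the test in Ly-6D+ CLPs after PBS, were below in Ly-6D+ CLPs after CpG on every array, with log2 differences of -0.64 (SE 0.24, adjusted p = 0.291) and -0.33 (SE 0.17, adjusted p = 0.488). They were the 2 genes lower without overlap and Ctsl and Ctsb the 2 higher, against 9.04% and 7.89% of all genes (16.9% either way). The median over the 10 genes was -0.04, against -0.0041 over all genes.

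**Figure D3:**
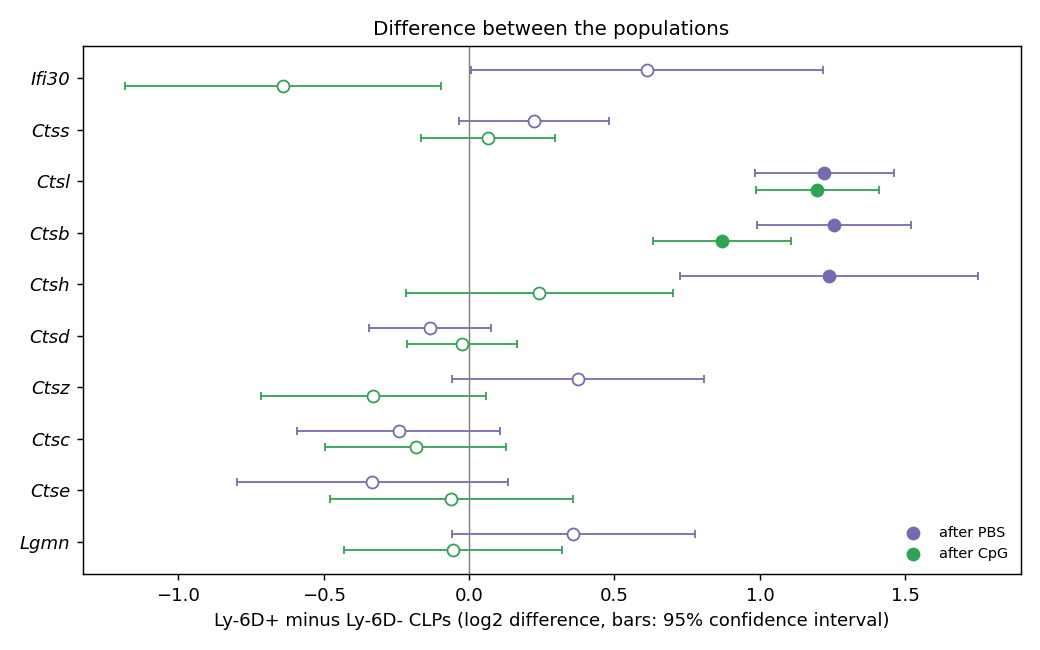
Log2 difference between Ly-6D+ and Ly-6D- CLPs of each gene (horizontal axis) after PBS (purple) and after CpG (green), with 95% confidence intervals from limma, not adjusted for the number of genes. Filled points passed at an adjusted p below 0.05. Ctsl (1.22 and 1.20) and Ctsb (1.26 and 0.87) passed under both treatments and Ctsh after PBS (1.24).

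Plasmacytoid dendritic cell markers and B-lineage genes differed between the populations as well. Of the 8 measured plasmacytoid dendritic cell markers, 5 were higher in Ly-6D+ CLPs in each comparison past the limma test, led by Siglech, Bst2, Cox6a2 and Pld4 after PBS and by Siglech, Cox6a2, Ccr9 and Tcf4 after CpG, and all 8 differences were above 0 under each treatment (medians 0.94 and 0.74). Siglech, a lectin of these cells, was 2.77 higher on the log2 scale after PBS (SE 0.13, adjusted p = 2.27e-06) and 2.95 after CpG (SE 0.11, adjusted p = 4.93e-07). The mean of the 8 markers ranged over 8.87 to 9.20 on the Ly-6D+ arrays and over 7.81 to 8.19 on the Ly-6D- arrays. Of the 6 measured mature B-cell markers, 3 were higher in Ly-6D+ CLPs after PBS past the test, Cd79a, Cd79b and Cd22. All 6 differences after PBS were above 0 (median 0.61). Cd79a, a chain of the B-cell receptor, was 4.85 higher after PBS (SE 0.29, limma adjusted p = 1.40e-05). After CpG 1 of the 6, Cd79a, passed, and 3 differences were above 0 and 3 below (median 0.11). Ms4a1, another of these markers, had group means of 2.55 to 3.15. Of the 11 monocyte and macrophage markers, 2 were lower in Ly-6D+ CLPs after PBS past the test, F13a1 (-2.05) and Ccr2 (-1.25), 0 were higher, and 2 had differences above 0, Ly6c2 (0.55) and Cx3cr1 (0.38), with a median of -0.32. After CpG 4 were lower, F13a1 (-3.03), Ccr2, Csf1r and Ms4a6c, 0 were higher, and Fcgr1 alone was not below 0 (0.0074), with a median of -0.53. The part of plasmacytoid dendritic cells in the levels of Ctsl and Ctsb was not tested.

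The order of the 4 group means differed between the genes. Ifi30 was highest in Ly-6D- CLPs after CpG, followed by Ly-6D+ CLPs after CpG, Ly-6D+ CLPs after PBS and Ly-6D- CLPs after PBS, and no neighbours in that order overlapped. Ctsz and Lgmn had the same order of means. For Ctsz the 2 PBS groups overlapped, and for Lgmn the 2 CpG groups did. Ctsh and Ctss were highest in Ly-6D+ CLPs after CpG and lowest in Ly-6D- CLPs after PBS, and that lowest group alone stood apart from its neighbour. In Ctsl both Ly-6D+ groups came first, and its 2 Ly-6D- groups overlapped. In Ctsb the 2 Ly-6D+ groups overlapped. Ctsc was highest in Ly-6D- CLPs after CpG and lowest in Ly-6D+ CLPs after PBS. Its 2 CpG groups overlapped.

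Ctsd and Ctse, the aspartic proteases, had no groups apart from their neighbours in that order. The group means of Ctsd, which degrades proteins in lysosomes of most cells, ran from 10.14 to 10.27, a span of 0.13, the smallest of the 10. Every interval of its differences lay within 0.40 of 0 on the log2 scale, the widest reaching 0.39 for the difference of CpG effects. The means of Ctse, which is found in endosomes of fewer cell types, ran from 7.30 to 7.63 with SDs of 0.09 to 0.37, so that its span of 0.33 is within the spread of single groups. The span of group means was 2.23 for Ifi30, 1.51 for Ctsh, 1.31 for Ctsl, 1.26 for Ctsb, 0.91 for Ctsz, 0.74 for Lgmn, 0.72 for Ctsc and 0.38 for Ctss.

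Some arrays were low for most of the 10 genes at once. The same counts were not made over all genes, so these cannot be told apart from shifts of a whole array. Ly-6D- PBS replicate 3 was the lowest of its group for 8 of the 10 genes, and Ly-6D- CpG replicate 3 was the lowest of its group for 7. Of the 2 Ly-6D+ PBS arrays, replicate 1 was the lower for 8 genes and replicate 2 for 2. In Ly-6D+ CLPs after CpG no array was the lowest for more than 5 genes. Ly-6D- CpG replicate 1 was the highest of its group for 7 genes, as was Ly-6D- PBS replicate 1 of its own. For Ifi30 the range within Ly-6D- CLPs was 0.94 after PBS and 0.83 after CpG, whereas the Ly-6D+ arrays lay within 0.10 and 0.23 of each other. The mean of the monocyte and macrophage markers on the Ly-6D- CpG arrays was 8.22, 7.87 and 7.56 for replicates 1, 2 and 3. Ifi30, Ctsh, Ctsz, Ctsc, Lgmn and Ctsb were also highest on replicate 1 and lowest on replicate 3. The other genes were not. Ctss was highest on replicate 2, Ctsd and Ctse on replicate 3, and Ctsl was lowest on replicate 2. This order was not particular to the monocyte and macrophage markers. On the same arrays the MHC class II genes had means of 8.16, 8.04 and 7.84, and the other lysosomal hydrolases 7.69, 7.55 and 7.40. The lymphoid progenitor genes, at 8.81, 8.71 and 9.10, did not have it. On the Ly-6D- PBS arrays the monocyte and macrophage markers were at 6.99, 7.04 and 6.88. Whether the composition of the samples sets these deviations was not tested.

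**Figure D4:**
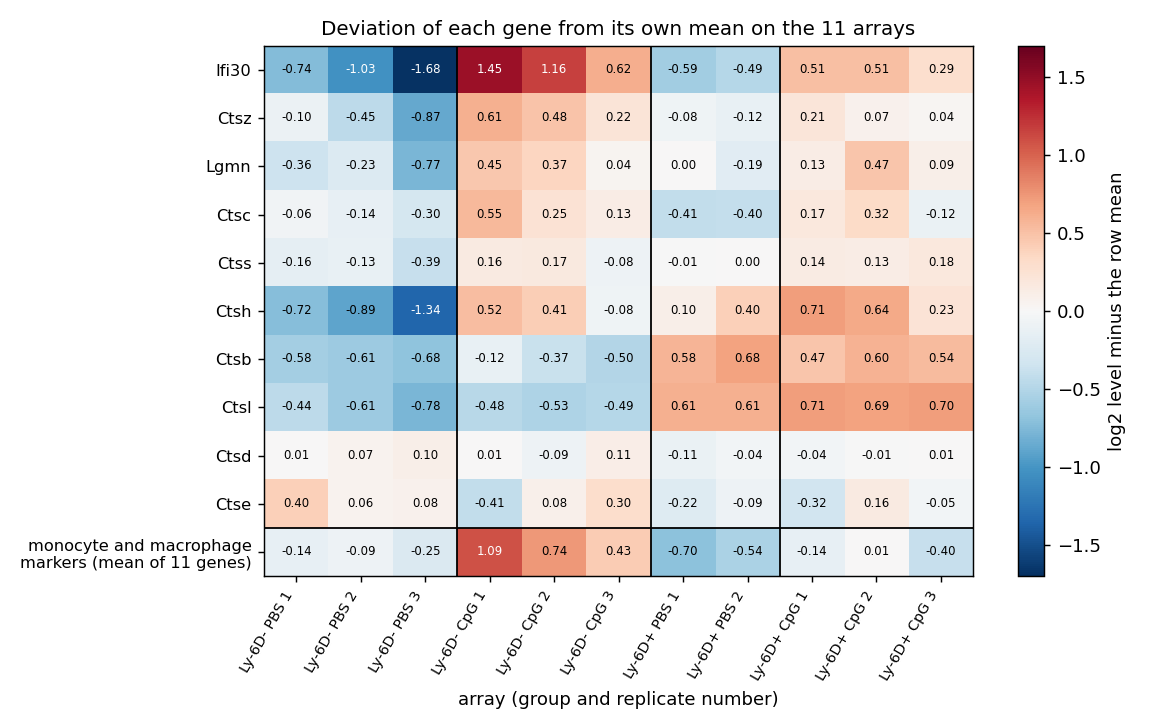
Log2 level of each gene minus its own mean over the 11 arrays (rows and colour scale, red above and blue below the mean) on each array (columns, by group and replicate number), with the mean of 11 monocyte and macrophage markers as the last row. Ifi30 runs from -1.68 to 1.45, and Ctsl and Ctsb change sign between the populations.

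Of 12 other lysosomal peptidases, Scpep1, a serine carboxypeptidase, was the 1 that rose with CpG in Ly-6D- CLPs (0.96, SE 0.15, limma adjusted p = 0.0300), and 0 fell (median 0.03, 6 above 0), so that 8.33% passed against 0.546% of all genes. At an unadjusted p below 0.05 there were 7 of the 12, as there were 7 of the 10 members. Scpep1 was also higher in Ly-6D+ than Ly-6D- CLPs after PBS (0.89, SE 0.17, adjusted p = 0.0225), with group means after CpG and PBS of 9.55 and 9.46 in Ly-6D+ and of 9.52 and 8.57 in Ly-6D- CLPs. Cpq, a carboxypeptidase, was lower in Ly-6D+ CLPs after PBS (-1.50, SE 0.24, adjusted p = 0.00909). Ctsg, a granule serine protease that Ctsc activates, had a change of 1.09 with CpG in Ly-6D- CLPs (adjusted p = 0.104) and was lower in Ly-6D+ CLPs after CpG (-2.36, SE 0.26, adjusted p = 8.06e-04), where Ctso was higher (0.54, SE 0.11, adjusted p = 0.0357). In each population comparison 2 of the 12 passed, or 16.7%, against 1.98% of all genes after PBS and 2.14% after CpG. In Ly-6D+ CLPs 0 of the 12 passed with CpG by limma, and 1 had an unadjusted p below 0.05.

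Hydrolases of other substrates and membrane proteins of the lysosome were read in the same way. Of 20 other hydrolases and activators, 0 passed for CpG in either population (medians 0.05 in Ly-6D+ and 0.16 in Ly-6D- CLPs, with 1 and 5 genes at an unadjusted p below 0.05), and Hexa, a subunit of hexosaminidase, was lower in Ly-6D+ CLPs after CpG (-0.69, SE 0.12, limma adjusted p = 0.0122). Of 21 genes of the lysosomal membrane and its acidification, 0 passed for CpG (medians 0.0022 and 0.14, with 0 and 7 genes at an unadjusted p below 0.05). Cd63, a tetraspanin of late endosomes, was lower in Ly-6D+ CLPs after PBS (-1.22, SE 0.22, adjusted p = 0.0178), Tcirg1, a proton pump subunit, was higher (0.51, SE 0.11, adjusted p = 0.0489), and after CpG Npc1, a cholesterol transporter, was higher (0.77, SE 0.09, adjusted p = 9.50e-04). Of 10 sorting receptors, enzymes and lysosomal transcription factors, Igf2r, a receptor that carries hydrolases to lysosomes, was the 1 that fell with CpG in Ly-6D- CLPs (-0.90, SE 0.17, adjusted p = 0.0470). It was lower in Ly-6D+ CLPs after PBS too (-1.38, SE 0.18, adjusted p = 0.00317), as was Tfec, of the TFEB family, after CpG (-2.39, SE 0.39, adjusted p = 0.00916). Of 12 cystatins and serpins that inhibit cathepsins, 0 passed in any of the 6 comparisons by limma, with a median of 0.15 for CpG in Ly-6D- CLPs and 1 to 4 genes at an unadjusted p below 0.05 in each comparison.

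The MHC class II molecules that these enzymes serve were among the genes that rose. Of 10 measured genes of MHC class II and its chaperones, H2-Aa, H2-Ab1 and H2-Eb1 were the 3 that rose with CpG in Ly-6D- CLPs (log2 changes 2.42, 1.82 and 2.79) and the 3 that rose in Ly-6D+ CLPs (3.20, 1.995 and 3.29), with limma adjusted p of 3.80e-04 to 0.00624. The class II list had a median change of 0.57 in Ly-6D- and 1.10 in Ly-6D+ CLPs, against 0.39 and 0.18 for the 10 enzymes. Of 9 measured genes of interferon-gamma signalling, Nlrc5, a transactivator of MHC class I, was the 1 that rose in Ly-6D- CLPs (0.65, SE 0.11, adjusted p = 0.0444), and 0 passed in Ly-6D+ CLPs, with 5 at an unadjusted p below 0.05. Irf8, a transcription factor of myeloid and lymphoid progenitors, was higher in Ly-6D+ CLPs after PBS (0.72, SE 0.10, adjusted p = 0.00404).

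The genes with levels most like those of 4 members were found by the mean absolute difference of log2 levels over the 11 arrays, with each gene centred on its own mean. For Ifi30 they were Stfa2l1 of the stefin family (0.36), Gbp5, an interferon-inducible guanylate-binding protein (0.36), and the Fc receptor Fcgr4 (0.38). For Ctsh they were Dhx40 (0.17), Scpep1 (0.19) and Cd22, a sialic acid-binding receptor of B cells (0.21). For Ctsb they were the ribonuclease Rnase6 (0.10), the adaptor Grap2 (0.11) and Tex2 (0.12), and for Ctsl Nucb2 (0.06), the adaptor Fyb (0.09) and Mctp2 (0.11). The measure takes all arrays together and has no test.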

How the data were processed

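Per the labels' protocols, RNA of sorted CLPs was amplified with a NuGen kit from 5 ng and 5 µg of cDNA was labelled. Per the submitters' processing notes the authors used Partek and RMA, which corrects background, normalises quantiles and summarises probes into the deposited log2 values. The sources used here give no versions. Of 41345 probe sets, the 23521 with 1 symbol gave 22180 genes, each by its brightest probe set. The number of arrays limits the precision.

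One mean per group was fitted to all 11 arrays with lmFit and eBayes of limma 3.58.1 under R 4.3.3 (7 residual and 3.48 prior degrees of freedom). A gene passed where its p, adjusted by Benjamini-Hochberg over all genes, was below 0.05, and SE is moderated. The fit was run on simulated data with independent noise, of equal spread in all groups. Shifts shared between arrays and unequal spreads were not simulated. Members and lists were chosen with earlier results of these data known. Named were all members and up to 4 genes per list with the smallest adjusted p among those past the test. So were the 3 nearest patterns for Ifi30 and members whose group means span over 1. Chosen after their values were seen were the markers that did not pass and Ctsg, Lyz2, Cd14, Cx3cr1, Fcgr1, Zbtb46, Ccr7, Cd3e, Nkg7, Ms4a1, Elane, S100a8, Flt3 and Dntt. Alternatives were other probe set, filter, variance, weight, scaling and block settings, only the groups compared, and each array left out. Promoter windows are RefSeq's, cut to the bases before the start.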

Additional observations from a re-analysis of the deposited data

Results flagged for a closer look

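Ifi30 and Ctsz stood out because every Ly-6D+ array lay above the Ly-6D- mean after PBS and every one below it after CpG. For Ifi30 the distances were 0.56 to 0.66 after PBS and -0.79 to -0.56 after CpG, and the tested difference was -1.25 (SE 0.37, unadjusted p = 0.00626, limma adjusted p = 0.622). For Ctsz they were 0.35 to 0.40 and -0.40 to -0.23, with a difference of -0.70 (SE 0.26, unadjusted p = 0.0222, adjusted p = 0.725).

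Ctsb stood out because every CpG array lay below the PBS mean in Ly-6D+ CLPs, by -0.16 to -0.03, and above it in Ly-6D- CLPs, by 0.12 to 0.50. The tested difference was -0.39 (SE 0.16, unadjusted p = 0.0356, limma adjusted p = 0.767). No group was large enough to look for single outlying arrays.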

How the results depend on the processing

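Of 490 member values under settings that kept every array, 467 kept direction and side of the threshold, as did 623 of 660 with 1 array left out; Ctsl and Ctsb passed throughout. The members past the test for CpG in Ly-6D- CLPs, 2, were 4 with a variance trend and with the replicate block, 0 in a fit of those groups alone, and 0 to 3 without 1 array. For the average they were 5 with a variance trend and with the replicate block, 2 with array weights, and 0 to 2 without 1 array. Genes past the test were 18, 425, 302, 660 and 726 with a variance trend (Ly-6D+, Ly-6D-, average, populations after PBS and after CpG, against 6, 121, 107, 439 and 474), and 0, 4, 190 and 264 with only the groups compared (not the average). For Ly-6D- they were 207 with array weights and 236 once the dimmest 33.3% of genes were dropped. For Ly-6D+ they were 11 with the replicate block. Numbered within treatment, that block gave 207 for the populations after PBS, and could not be fitted for CpG effects. Leaving out 1 array gave 4 to 16 (Ly-6D+), 5 to 309 (Ly-6D-, without CpG replicates 2 and 3), 6 to 216 (average), 0 to 1 (difference), 185 to 416 (after PBS) and 264 to 516 (after CpG). The main fit did not pair arrays by number. Across-gene correlations of deviations were -0.03 to 0.18 over 15 same-numbered pairs. Between the CpG groups they were 0.06, 0.10 and 0.18 for same-numbered arrays and -0.13 to 0.04 for the others. Between the PBS groups they were -0.0065 and 0.0275 for same-numbered arrays and -0.03 to 0.03 for the others. The deviations of the 2 Ly-6D+ PBS arrays are equal and opposite, so these PBS values mirror each other. In every group the deviations sum to 0, which ties the values of same-numbered arrays to those of the others. Whether same-numbered arrays share a source was not tested.

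Sign changes were of values near 0. The average for Ctsd was -0.0298 after quantile normalization and -0.0053 with the replicate block. The Ctsl difference of effects was 0.0026 with the replicate block and 0.0614 within treatment. With 1 array left out, values crossed 0 in CpG in Ly-6D+ (Ctse -0.0322 to 0.209), CpG in Ly-6D- (Ctsd -0.0981 to 0.0022, Ctse -0.347 to 0.0109), the average (Ctsd -0.0172 to 0.0329, Ctse -0.133 to 0.0465), the difference (Ctsl -0.109 to 0.0614, Ctsc -0.0393 to 0.181), the populations after CpG (Ctss -0.0168 to 0.111, Ctsd -0.0725 to 0.0278, Ctse -0.262 to 0.0962, Lgmn -0.179 to 0.0281). No member had a further probe set to try. Depth has no meaning for arrays, and signal over background is unknown.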

Other observations

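Some lists had no CpG changes described above. The 6 T-cell and NK-cell markers had median log2 changes with CpG of 0.16 in Ly-6D+ and 0.05 in Ly-6D- CLPs. For the 6 mature B-cell markers these were -0.36 and 0.12, and for the 2 measured erythroid markers 0.51 and -0.25. In each of these lists 0 passed the limma test, and 0 to 2 genes had an unadjusted p below 0.05.

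Averaged over both populations, H2-Eb1, H2-Aa and H2-Ab1 rose with CpG (3.04, 2.81 and 1.91 on the log2 scale), as did Ciita, the class II transactivator (1.03, limma adjusted p = 0.0167). The monocyte markers F13a1, Ccr2 and Ms4a6c rose (1.32, 1.24 and 0.93), as did Batf3 of dendritic cells (0.92) and Nlrc5 (0.50), and Rag2 fell by 0.45. H2-Eb2 was higher in Ly-6D+ CLPs (1.06 after PBS, 1.56 after CpG), and so were Itgax (1.38 and 0.86), the B-lineage genes Ebf1 (3.64 and 3.85) and Cd79a (4.85 and 5.21), and Il7r (0.68 and 1.46). Cd79b (1.01) and Cd22 (0.89) were higher after PBS, and Rag2 (0.86) after CpG. Lower in Ly-6D+ CLPs were Kit (-1.08 and -0.67) and Ccr2 (-1.25 and -1.91), and after CpG Csf1r (-1.69), Ms4a6c (-1.16), Batf3 (-0.89), Mpo (-1.78) and Prtn3 (-1.93); each of these passed the same limma test.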
